A study of Mus musculus with 2 samples.

Results

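Neurons that make vasopressin (Avp) but neither vasoactive intestinal peptide (Vip) nor gastrin-releasing peptide (Grp) were found in single-cell RNA libraries of the mouse arcuate nucleus and median eminence, and numbered 151 of 7418 cells. A cell was a member when its level, in unique molecular identifiers (UMIs, each counting 1 captured mRNA molecule) per 10000 UMIs of the cell, was at least 10 for Avp, under 5 for Vip and Grp together, under 10 for Agrp, under 10 for Pomc, and at least 5 for the neuronal genes Snap25, Stmn2 and Syt1 together. Members were thus selected on measured levels of Avp, Vip, Grp, Agrp, Pomc and the 3 neuronal genes, so the high Avp and the missing Vip, Grp, Agrp and Pomc are not findings. Members were split into 138 clock-type cells, with 1 or more UMIs of Rgs16 or Prok2, and 13 cells with none of either, called the rest below.

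The dHet library came from CD-1 mice doubly heterozygous for Irx3 and Irx5 that carried Ins2-Cre and the Ai14 tdTomato reporter. The control library came from CD-1 mice with Ins2-Cre and tdTomato and without the Irx3/5 alleles in their label. Both were taken at postnatal day 10, each from 5 pooled mice by its label (the shared protocol gives 5 to 6), and both were sorted for live tdTomato-positive cells after papain digestion, so every cell here had been labelled through the Ins2-Cre driver. Neither the labels nor the protocols used here state at what time of day the mice were taken. There was 1 library per genotype, so no test between genotypes was possible, and cells were not used as replicates: the 95% intervals below are exact and cover counting error only. Irx3 and Irx5, the homeobox genes that the dHet mice carry at reduced dose, had 0 UMIs in members of either library, and 3′ tags would not check the deletion in any case.

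The suprachiasmatic nucleus, the master circadian clock of mammals, lies at the front of the hypothalamus and holds a shell rich in Avp neurons around a core rich in Vip and Grp neurons. Its cells run a feedback loop in which CLOCK and BMAL1 (Arntl) activate the Per and Cry repressors and the Nr1d, Dbp and Bhlhe genes, many through the E-box CACGTG. Rgs16, a regulator of G-protein signalling, and Prok2, a secreted output peptide, are rhythmic in that nucleus, and Avp itself is a clock output there. Other Avp neurons, those of the paraventricular and supraoptic nuclei, are large neurosecretory cells that use Otp and Sim1 during their development.

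Of 3053 dHet cells that passed the neuronal condition 86 were members, and of 2467 control cells 65 were, which is 2.82% (2.26 to 3.47) and 2.63% (2.04 to 3.35) by Clopper-Pearson intervals. The ratio of the shares was 1.07 (0.766 to 1.5), so a difference was not detectable with these numbers of cells. The members held 1192303 UMIs in dHet and 922835 in control, with medians of 13962.5 and 15021 UMIs a cell. The median share of mitochondrial UMIs in members was 4.98% in dHet and 4.37% in control. The libraries shared 4 cell barcodes, 0 of them belonging to members.

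The cutoff on Avp fell where cells were sparse. The 3 members nearest the threshold had 10.6, 11.2 and 12.1 Avp UMIs per 10000 in dHet, and 10.6, 14.1 and 18.4 in control. The 3 cells just outside it had 9.69, 9.59 and 8.52 in dHet, and 9.36, 9.07 and 7.64 in control. Of the cells over the Avp threshold, the condition on Vip and Grp removed 6 in dHet and 1 in control, and those on Agrp and Pomc removed 0 in dHet and 1 each in control.

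Avp lies on mouse chromosome 2 (GRCm38, chr2:130580620-130582554, minus strand, ENSMUSG00000037727). Its level ran from 10.6 through a median of 122.5 to 2320 UMIs per 10000 in dHet members, and from 10.6 through a median of 75.5 to 442 in control members. The ranges between the lower and upper quartiles overlapped, at 55.1 to 216 in dHet and 36.6 to 146 in control. Of all member UMIs Avp took 2.18% in dHet and 1.09% in control, a log2 ratio of 1.00, but 1 dHet cell alone held 38.9% of the dHet Avp UMIs. Without that cell the log2 ratio was 0.35, under the 1.5-fold size used as the threshold throughout (a log2 ratio of 0.585 after adding 5 CPM to each side, CPM being a gene's UMIs per 1000000 of the cells' summed UMIs). At least 200 Avp UMIs per 10000 were held by 26 of 86 dHet and 6 of 65 control members. The log2 ratio was also 0.35 in members with UMIs of both Rora and Rorb and 0.37 in cells between the quartiles of total UMIs. Both sets leave out the cell with most Avp, so they are not separate checks. The cell had 43615 UMIs in all, 12 of them Otp, 80 Gal, 77 Cartpt and 0 Rora, so it lacked the genes the other members shared. It counted as clock-type on 1 Rgs16 UMI, and it held 40.7% of the Avp UMIs of the dHet clock-type cells. An Avp UMI was also seen in 5.31% (3.92 to 6.99) of dHet and 2.08% (1.29 to 3.16) of control cells that failed the neuronal condition, at median depths of 7330 and 8246 UMIs, and the part of this surrounding Avp RNA in the members' levels was not tested.

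**Figure D1:**
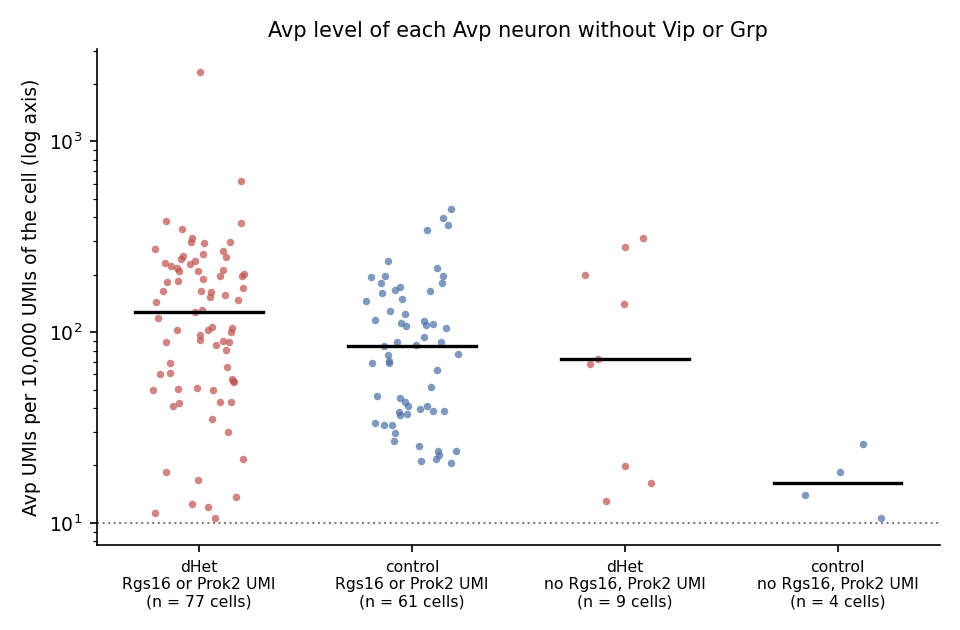
Avp level of every member on a log axis, in UMIs per 10000 UMIs of the cell; each point is 1 cell, the black bar is the median, the dotted line is the threshold of 10, and dHet stands left of control within the clock-type cells and within the rest. The clock-type medians are 126.8 in dHet and 84.4 in control, the clouds overlap, and 1 dHet cell stands alone at 2320.

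Clock-type cells made up most members of both genotypes. They were 77 of 86 members in dHet, 89.5% (81.1 to 95.1), and 61 of 65 in control, 93.8% (85.0 to 98.3). A UMI of Rgs16 or Prok2 was also found in 59.4% of dHet and 60.4% of control Vip or Grp neurons and in 15% of dHet and 16.6% of control cells among all other neurons, at median depths of 20981 and 22101.5 UMIs. Other neurons are here all cells that passed the neuronal condition and were not members, so they include the 64 dHet and 48 control Vip or Grp neurons. Without those the shares were 14% and 15.7%. In cells that failed the neuronal condition the share was 2.82% in dHet and 3.75% in control. With each cell thinned to 8000 UMIs, which left out 12 dHet and 10 control members, the clock-type share was 81.1% (70.3 to 89.3) in dHet and 96.4% (87.5 to 99.6) in control. The ratio of the shares was 0.841 (0.572 to 1.24). That interval treats the cell counts as rates with no upper limit of 100%. It is too wide for shares this high, so it cannot decide whether they differ.

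The rest were few. Their 9 dHet cells held 90567 UMIs and their 4 control cells 21225, and 3 of the 13 cells entered on 1 Avp UMI each. UMIs of both Rora and Rorb were present in 8 of the 9 dHet cells and 2 of the 4 control cells. Avp ran from 12.9 to 311 UMIs per 10000 in the dHet rest and from 10.6 to 25.9 in the control rest. Genes were compared one by one where they had 200 UMIs or more, a UMI in 10% of the cells of 1 side and under 25% of their UMIs in 5 cells. Of 651 such genes, 8 (1.23%) were at least 1.5-fold higher in clock-type cells than in the rest in both libraries, and 6 (0.922%) were lower. The clock output gene Dbp was the second highest, with 275 and 458 CPM in clock-type cells of dHet and control, against 122 and 47.1 in the rest of dHet and control. Tesc, which encodes the calcium-binding protein tescalcin, came next, with 368 and 356 CPM in clock-type cells against 177 and 94.2 in the rest. The control side of both comparisons rests on 4 cells, 1 of which holds 16200 of their 21225 UMIs. The 47.1 CPM of Dbp there is 1 UMI, and Tesc there also rests on very few UMIs.

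Beyond the genes that chose them, members carried a shared set of transcription factors of the suprachiasmatic nucleus. Members are set against the 5369 other neurons, each library within itself. Rora, a nuclear receptor that drives Arntl, had 892 and 1102 CPM in dHet and control members, against 40.6 and 38.8 in other neurons, and a UMI of it was seen in 97.7% and 96.9% of members and 35.3% and 32.0% of other neurons. Its relative Rorb had 835 and 1156 in members against 62.3 and 63.9. The homeobox factors Six3, with 896 and 1039 in members against 276 and 295, and Six6, with 367 and 453 against 126 and 128, were also higher in both libraries.

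Zic1, a zinc-finger transcription factor, had 226 and 294 CPM in dHet and control members, against 10.4 and 9.88 in other neurons, and its relative Zic4 had 74.7 and 80.2 against 4.28 and 3.52. C1ql3, a secreted synaptic protein, had 669 and 513 against 34.1 and 31.9, but it was also high in Vip or Grp neurons, at 428 and 384. The receptor gene Vipr2, through which the core's Vip peptide reaches its targets, had 70.5 and 74.8 against 1.76 and 2.15. Nms, the suprachiasmatic peptide neuromedin S, had 102 and 92.1 against 2.98 and 1.71. Vip or Grp neurons held Nms as well, at 151 and 60.5 in dHet and control, so it was not particular to members. Avpr1a, a vasopressin receptor, had 41.9 and 39.0 against 9.79 and 8.56, and Prokr2, the receptor for Prok2, had 35.2 and 69.4 against 6.94 and 7.70. Members as a population thus held RNA for the Avp and Prok2 peptides and for a receptor of each.

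Gene lists were counted over their measured genes, those with 50 UMIs or more. The lists were chosen with earlier results of these data known, so the counts describe the cells and test nothing. A suprachiasmatic list had 19 measured genes (the rule's own Rgs16 and Prok2 left out). Of these, 13 were at least 1.5-fold higher in members than in other neurons in both libraries and 1, Calb2, was lower. For each gene the smaller in size of the 2 libraries' log2 ratios was taken, or 0 where their signs differed. The median of this value was 1.68 for the list and 0.00 for all genes. The 0.00 reflects these set zeros and is not the centre of the contrast. Of the 25 clock genes 15 were higher and 0 lower. The background over the 14730 genes with 50 UMIs was 4.53% higher and 12% lower, and it applies to each list set against other neurons below. Among the 9747 genes that met the stricter count conditions for naming, 505 (5.18%) were higher in members and 1464 (15%) lower. With the median of each contrast subtracted the calls were 688 higher and 1167 lower, and with the Vip or Grp neurons taken out of the other neurons 506 and 1477.

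The genes that mark the arcuate nucleus were low in members, although the labels give the arcuate nucleus and median eminence as the tissue. Isl1, a LIM-homeobox factor of arcuate neurons, had 11.7 and 4.33 CPM in dHet and control members against 215 and 237 in other neurons. Nkx2-1, a homeobox factor of the ventral hypothalamus, had 0 and 2.17 against 54.8 and 65.3, and Tbx3, a T-box factor of arcuate peptide neurons, had 0 and 3.25 against 75.4 and 71.2. Npy, the orexigenic peptide of Agrp neurons, had 36.1 and 21.7 in members against 2588 and 1833 in other neurons, and Sst, somatostatin, had 16.8 and 34.7 against 1217 and 1433. Of 33 measured hypothalamic transcription factors 17 were lower and 5 higher in members. The higher ones included Dlx6, a homeobox factor of GABA neurons, at 51.2 and 79.1 against 17.3 and 18.5.

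The defining markers of paraventricular and supraoptic Avp neurons were low. Of 14 measured genes on a list for these nuclei, 1, Oxt, was at least 1.5-fold higher in members than in other neurons and 5 were lower. Otp had 10.9 and 1.08 CPM in dHet and control members, and 12 of its 13 dHet UMIs lay in the 1 cell with most Avp. Sim1 had 1.68 and 0, Crh 0.839 and 0, and Trh 0.839 and 1.08. Calb1 (calbindin), which many neurons express, was not low, with 206 and 262 in dHet and control members against 281 and 280 in other neurons. Oxt, oxytocin, had 21.0 and 22.8 CPM, in 18.6% and 21.5% of members, against 0.475 and 0.414 in 0.944% and 0.833% of other neurons. Oxt and Avp are neighbours on chromosome 2, 3565 bases apart on opposite strands, with near-identical stretches in their coding parts, so the Oxt counts are uncertain: they came to 0.961 and 2.09 for each 1000 Avp UMIs.

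Members were GABA neurons by their transmitter genes. Gad1, which makes GABA, had 483 and 456 CPM in dHet and control members against 226 and 237 in other neurons. Slc32a1, the vesicular GABA transporter, had 206 and 198 against 205 and 212. Slc17a6, a vesicular glutamate transporter, had 18.4 and 1.08 against 215 and 204. Of 29 GABA and glutamate receptor subunits, 18 were lower in members and 1, Gabrg3, was higher, at 143 and 191 against 90.5 and 86.2. Gabra5 stood at 15.1 and 13 against 129 and 108, and the metabotropic glutamate receptor gene Grm5 at 47.0 and 35.8 against 160 and 167.

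The ion channel genes split. Of 29 measured potassium, sodium and calcium channel genes, 4 were higher and 12 lower in members. Kcnc2, a fast potassium channel of the Kv3 family, had 93.1 and 56.4 CPM in dHet and control members against 18.9 and 17.3 in other neurons. The sodium channel gene Scn1a was almost missing, with 0.839 and 4.33 against 37.1 and 42.3. Of 22 measured genes of peptide processing and secretory granules 5 were higher and 3 lower in members. The median was 0.14 for the smaller of the 2 libraries' log2 ratios (0 where signs differed). Over all genes with 50 UMIs 4.53% were higher and 12% lower, so the 3 lower ones are near the background share. Among the higher ones, Scg2, a granin, had 3281 and 4052 against 1062 and 960, Vgf, a granule peptide precursor, 1004 and 1204 against 349 and 330, and Pcsk2, a prohormone convertase, 434 and 487 against 117 and 134. The lower ones were Pcsk1n, a granin-like convertase inhibitor, with 1141 and 1203 against 2392 and 2433, Cadps, a vesicle-priming protein, with 79.7 and 75.8 against 170 and 167, and Syt7, a calcium sensor of release, with 16.8 and 7.58 against 42.3 and 42.4.

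**Figure D2:**
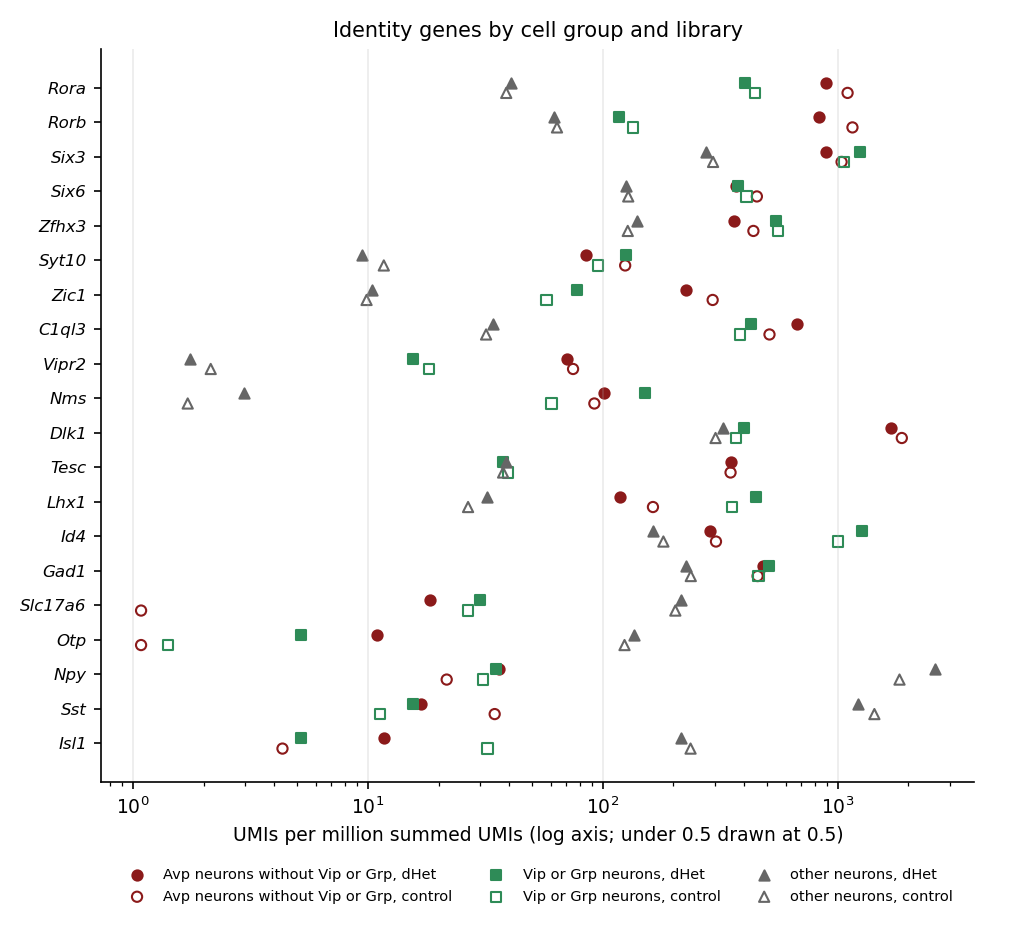
CPM of 20 genes on a log axis in members (circles), Vip or Grp neurons (squares) and other neurons (triangles), with filled marks for dHet above open marks for control. Rora, Rorb, Zic1, Vipr2, Dlk1 and Tesc lie farther right in members than in either other class, Lhx1 and Id4 farther right in Vip or Grp neurons, and Otp, Npy, Sst and Isl1 farther right in other neurons.

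Members were also set against the 112 Vip or Grp neurons (64 dHet, 48 control), which had at least 10 UMIs per 10000 of Vip and Grp together. Members and these cells had like levels of Six6, with 367 and 453 CPM in dHet and control members and 377 and 409 in Vip or Grp neurons. Of 1350 genes with enough counts, 52 (3.85%) were at least 1.5-fold higher in members in both libraries and 69 (5.11%) lower. Tesc had 353 and 350 in members against 37.7 and 39.4 in Vip or Grp neurons. Chodl, a membrane protein with a lectin domain, had 315 and 456 against 62.4 and 78.8, and Dlk1, a Notch-family ligand that is imprinted, had 1692 and 1875 against 400 and 369. Rorb was 835 and 1156 against 117 and 135.

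Genes lower in members than in Vip or Grp neurons included Id4, an inhibitor of basic helix-loop-helix factors, with 287 and 303 CPM in dHet and control members against 1271 and 1004 in Vip or Grp neurons. Cadps2, which primes dense-core vesicles, had 46.1 and 81.3 against 364 and 284. Lhx1, a LIM-homeobox factor needed for the peptides that couple suprachiasmatic neurons, had 118 and 164 against 451 and 355, and the transcript Lhx1os beside it had 70.5 and 102 against 376 and 408. Lhx1 and Lhx1os are an antisense pair by name, and whether the counting used strand is not stated in the sources used here, so they may share reads. Calb2, the calcium-binding protein calretinin, had 49.5 and 31.4 against 963 and 1002.

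Markers of most other cell types were low in members or lay in few cells. The summed oligodendrocyte precursor markers came to 56.2 CPM in dHet and 1.08 in control, with 100% of the dHet UMIs in 1 cell. Microglia markers came to 0 in dHet, where all 5 genes were at 0, and 109 in control, where 3 of 5 genes were at 0 and 1 cell held 48.5% of the UMIs. Astrocyte markers came to 6.71 and 41.2, against 3691 and 3013 in cells that failed the neuronal condition, and endothelial, ependymal and cycling markers to at most 21.7. Oligodendrocyte markers came to 45.3 and 62.9. Tanycyte markers came to 169 and 152 in dHet and control members, above the 82.3 and 92.2 in other neurons, with at most 8.57% of the UMIs in 1 cell. Nearly all were UMIs of Col25a1, a membrane collagen, with 163 and 124 in members against 48.4 and 53.6 in other neurons, while the tanycyte factor Rax had 0.839 and 5.42 and Scn7a was at 0 in both. Pars tuberalis markers came to 345 and 303, nearly all from Chga, a granin that neurons also express, with 338 and 292. In 4 dHet and 2 control members there were 10 or more UMIs of Otp, Tac1, Olig1 or Cx3cr1. The dHet cell with most Avp is among them, and without these cells the log2 ratio of Avp was 0.40. None of the other 38 genes followed through the alternatives moved by 1.5-fold or more without these cells.

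Between genotypes, members of the dHet library had lower RNA of the genes that choose the clock-type cells. Rgs16 (chr1:153740349-153745468) ran from 0 through a median of 1.85 to 22.6 UMIs per 10000 in dHet members, and from 0 through a median of 10.5 to 39.1 in control members. The ranges overlapped, but the lower quartile in control, 3.58, was above the dHet median. Summed over cells, Rgs16 had 369 and 1115 CPM in dHet and control, a ratio of 0.331 (0.295 to 0.370). Prok2 (chr6:99711299-99726392) had 120 and 378, a ratio of 0.317 (0.259 to 0.386). Its UMIs were unevenly spread, which the counting interval does not cover. The upper quartile of Prok2 was 1.30 UMIs per 10000 in dHet and 4.19 in control members, and the highest control cell had 34.3. A Prok2 UMI was found in 39.5% of dHet and 55.4% of control members. At 8000 UMIs a cell these shares were 35.1% (24.4 to 47.1) and 49.1% (35.4 to 62.9), with overlapping intervals. A Rgs16 UMI was found in 86.0% of dHet and 92.3% of control members, and at 8000 UMIs a cell in 75.7% (64.3 to 84.9) and 96.4% (87.5 to 99.6) of those kept.

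Rgs16 and Prok2 differed in the same direction in the Vip or Grp neurons, with 226 and 549 CPM for Rgs16 and 7.80 and 87.2 for Prok2 in dHet and control. In other neurons Rgs16 had 12.3 and 21.4, and without the Vip or Grp neurons among them 9.69 and 14.3. Rasl11b, a small Ras-like GTPase on the suprachiasmatic list, had 67.9 and 398 in dHet and control members, a ratio of 0.171 (0.133 to 0.218), and 52.0 and 204 in Vip or Grp neurons, against 5.85 and 9.54 in other neurons, or 5.28 and 6.90 without the Vip or Grp neurons. In the Vip or Grp neurons 5 cells held 50.3% of the Rasl11b UMIs. Over the 18 measured genes of that list other than Rgs16 and Prok2, 2 were at least 1.5-fold lower in dHet members, Rasl11b and Prokr2, and 2 were higher, with a median log2 ratio of -0.23 against -0.02 for all genes. For comparison, 3.1% of the 5931 genes with 50 UMIs were higher in dHet members and 4.91% lower. The 2 higher ones were Tac1, a tachykinin precursor with 97.1% of its UMIs in 5 cells, and Penk, an enkephalin precursor at 78.0 and 48.8.

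Rora, Six3, Six6 and Zfhx3, transcription factors of these neurons, differed less than 1.5-fold between genotypes. Zfhx3, a large zinc-finger and homeobox factor that sets suprachiasmatic rhythms, had 363 and 438 CPM in dHet and control members, a ratio of 0.830 (0.723 to 0.952). Vipr2 had a ratio of 0.942 (0.677 to 1.32) and Nms of 1.10 (0.828 to 1.47).

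The core clock genes did not move in 1 direction. Of 19 measured clock genes, 6 were at least 1.5-fold lower in dHet members, 2 were higher, and the median log2 ratio was -0.19. Over all genes with 50 UMIs 4.91% were lower and 3.1% higher. The lower ones were Per1, Bhlhe41, Nr1d1, Nr1d2, Dbp and Hlf, and the higher ones Cry1 and Per2. Per1, a repressor that light induces quickly, had 18.5 and 54.2 CPM in dHet and control members, a ratio of 0.341 (0.196 to 0.573). Nr1d1, the nuclear repressor REV-ERB alpha, had 54.5 and 142, a ratio of 0.384 (0.281 to 0.521), and its relative Nr1d2 had 63.7 and 114, a ratio of 0.560 (0.411 to 0.760).

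Bhlhe41, a repressor that competes at E-boxes, had 62.9 and 166 CPM in dHet and control members, a ratio of 0.379 (0.284 to 0.503). Dbp, a transcription factor of the clock's output, had 263 and 449, a ratio of 0.587 (0.505 to 0.681), and Hlf, of the same family, had 160 and 245. Cry1, a late repressor of the loop, had 104 and 49.9, a ratio of 2.09 (1.48 to 2.99). A Cry1 UMI was seen in 60 of 86 dHet and 19 of 65 control members, and at 8000 UMIs a cell in 52.7% (40.8 to 64.4) and 27.3% (16.1 to 41.0) of those kept. Per2, the partner repressor, had 67.1 and 33.6, a ratio of 2.0 (1.30 to 3.13), with a UMI in 47 of 86 and 21 of 65 members. Arntl, at 49.5 and 37.9, Per3, at 66.3 and 57.4, and Clock, at 120 and 82.4, lay within 1.5-fold by the log2 ratio with 5 CPM added. With cells weighted equally, Dbp and Nr1d2 were under 1.5-fold, at log2 ratios of -0.56 and -0.57.

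In the Vip or Grp neurons the pattern was partly the same. Cry1 had 52.0 and 28.1 CPM in dHet and control, Per2 28.6 and 9.85, and Nr1d1 29.9 and 49.2, while Per1 stood at 19.5 and 22.5, Nr1d2 at 62.4 and 61.9 and Dbp at 296 and 312. Of 14 measured clock genes there, which leave out Per2 on its 22 and 7 UMIs, 2 were at least 1.5-fold higher, Cry1 and Per3, and 1 was lower, Nr1d1. Per3 had 103 and 54.9, a ratio of 1.87 (1.26 to 2.82), and was within 1.5-fold in members. For comparison, the background over all genes with 50 UMIs there was 2.33% higher and 4.26% lower. Over the other neurons 0 of 25 clock genes passed 1.5-fold in either direction, with or without the Vip or Grp neurons among them, against 0.0953% of all genes higher and 0.163% lower. The difference of the ratios between cell classes was not tested, since each genotype has 1 library, and anything else that differed between the pools, time of day included, cannot be told apart from genotype.

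**Figure D3:**
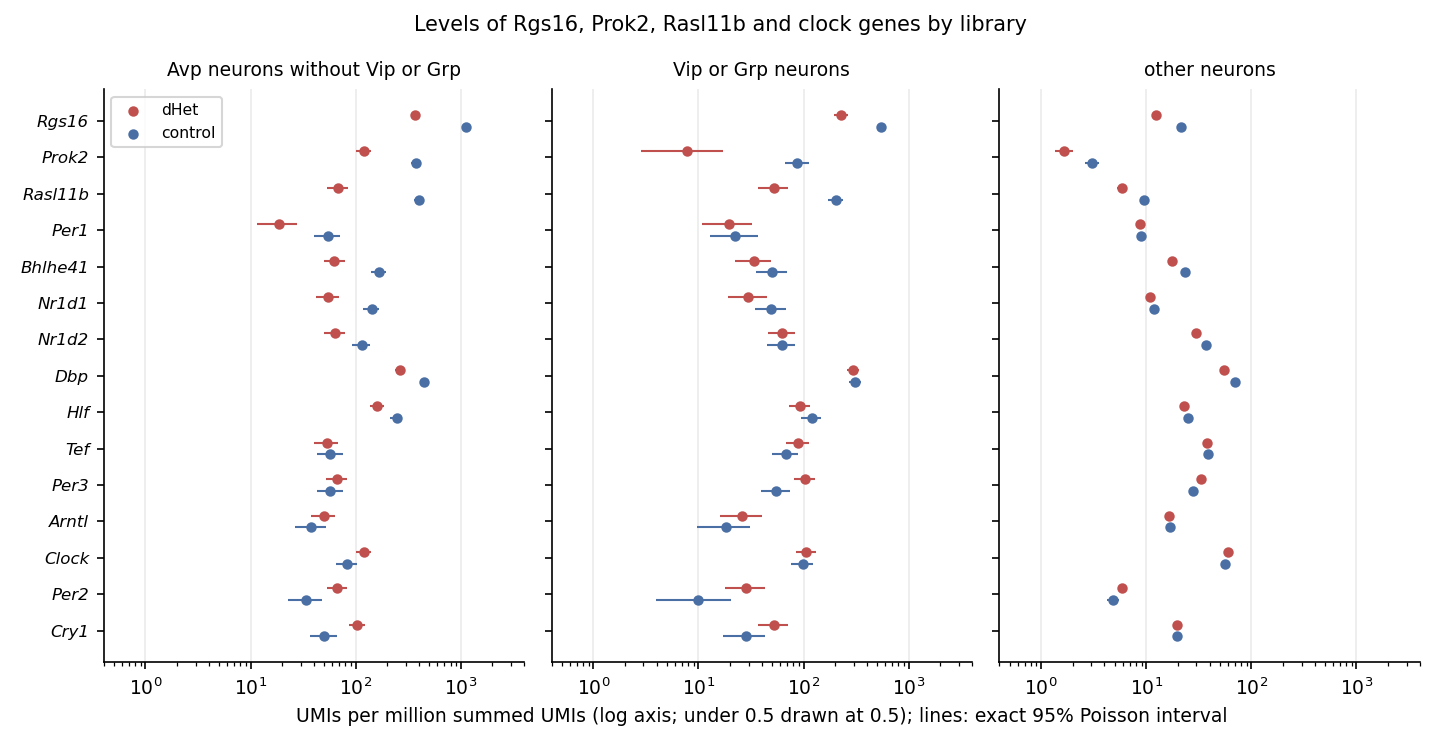
CPM on a log axis of Rgs16, Prok2, Rasl11b and 12 clock genes in dHet (red) above control (blue), in members, Vip or Grp neurons and other neurons; lines are exact 95% Poisson intervals of the summed counts. In members the red points lie left of the blue ones from Rgs16 down to Hlf and right of them for Per2 and Cry1, and in other neurons the pairs of the clock genes lie close together.

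The E-box CACGTG was looked for in the 200 bases before each gene's start (RefSeq, GRCm38.p6), where 5.26% of 32851 windows hold it. The motif reads the same on both strands. It was present for Avp, for Prok2 and for 5 of the 21 clock genes that had a window. The windows of Avp, Prok2, Per1, Cry1 and Bhlhe41 are printed 5′ to 3′ on the gene's strand because their levels differed between genotypes in both directions or define the cells, with the E-box in capitals. They lie at chr2:130582589-130582788 (Avp, minus strand), chr6:99726393-99726592 (Prok2, minus), chr11:69098749-69098948 (Per1, plus), chr10:85185055-85185254 (Cry1, minus) and chr6:145865421-145865620 (Bhlhe41, minus).
Avp: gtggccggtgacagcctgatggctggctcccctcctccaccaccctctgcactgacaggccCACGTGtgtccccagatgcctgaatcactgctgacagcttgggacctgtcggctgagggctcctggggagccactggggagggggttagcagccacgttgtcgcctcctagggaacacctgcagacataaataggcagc
Prok2: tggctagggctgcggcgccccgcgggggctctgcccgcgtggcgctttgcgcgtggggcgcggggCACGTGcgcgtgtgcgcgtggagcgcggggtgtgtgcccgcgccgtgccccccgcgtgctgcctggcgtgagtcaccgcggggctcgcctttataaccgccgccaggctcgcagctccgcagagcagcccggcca
Per1: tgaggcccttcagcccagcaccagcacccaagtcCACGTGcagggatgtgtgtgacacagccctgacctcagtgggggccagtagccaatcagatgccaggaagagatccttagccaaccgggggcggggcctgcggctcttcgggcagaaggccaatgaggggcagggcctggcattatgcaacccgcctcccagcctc
Cry1: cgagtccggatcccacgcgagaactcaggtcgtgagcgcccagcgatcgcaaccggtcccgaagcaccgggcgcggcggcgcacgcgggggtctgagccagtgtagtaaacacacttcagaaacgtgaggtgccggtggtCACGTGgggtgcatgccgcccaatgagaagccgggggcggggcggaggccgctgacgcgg
Bhlhe41: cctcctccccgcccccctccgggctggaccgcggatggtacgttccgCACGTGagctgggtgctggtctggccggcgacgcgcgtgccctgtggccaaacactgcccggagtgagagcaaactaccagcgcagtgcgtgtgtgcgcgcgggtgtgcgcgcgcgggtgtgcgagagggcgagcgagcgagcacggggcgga

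The capitals begin 139 bases before the start in Avp, 135 in Prok2, 166 in Per1, 60 in Cry1 and 153 in Bhlhe41. The letters CACGTG were not in the windows of Rgs16, Rasl11b, Dbp, Nr1d1, Nr1d2 or Hlf. Genes that hold it stand on both sides, with Prok2, Per1 and Bhlhe41 lower and Cry1 higher in dHet members. The cAMP-response motif TGACGTCA, in 1.47% of windows, was found for Hlf among the clock genes, and the D-box TTATGTAA, in 0.679% of windows, for Per3 and Timeless, with both strands searched. No 2 of these motifs overlapped in the windows printed. A match is a description of the letters and not a bound site.

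Across all genes the dHet and control members differed in few. Of 1820 genes with enough counts 16 (0.879%) were at least 1.5-fold higher in dHet members and 33 (1.81%) lower. The lowest was Fos, an immediate early gene switched on by neuronal activity. Fos ran from 0 through a median of 0.787 to 33.6 UMIs per 10000 in dHet members, and from 0 through a median of 12.2 to 87.9 in control members, so the control median stood above the dHet upper quartile of 5.04. Summed, it had 383 and 2003 CPM, a ratio of 0.191 (0.172 to 0.212).

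Pde10a, a phosphodiesterase that breaks down cAMP and cGMP, followed with 231 and 661 CPM in dHet and control members, a ratio of 0.349 (0.302 to 0.403), against 117 and 208 in Vip or Grp neurons, a ratio of 0.562 (0.427 to 0.735), and 70.1 and 82.2 in other neurons. Dusp1, a phosphatase of MAP kinases that activity induces, had 73.0 and 201. Pcgf5, a Polycomb protein, had 97.3 and 214, and Srrm4, a neuronal splicing factor, had 97.3 and 205. Flrt3, an adhesion protein, had 86.4 and 179, Tob1, a regulator of transcription and mRNA decay, 83.9 and 172, and Coq10b, a coenzyme Q binding protein, 78.0 and 146. Several of these were also at least 1.5-fold lower in dHet Vip or Grp neurons: Dusp1 had 44.2 and 81.6 there, Srrm4 54.6 and 108, and Pcgf5 36.4 and 59.1. Coq10b, with 74.1 and 105.5 (log2 ratio -0.48), Flrt3, with 181 and 204, and Tob1, with 89.7 and 67.5, were within 1.5-fold in those cells. In other neurons Dusp1 was past 1.5-fold as well, with 14.6 and 26.7.

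**Figure D4:**
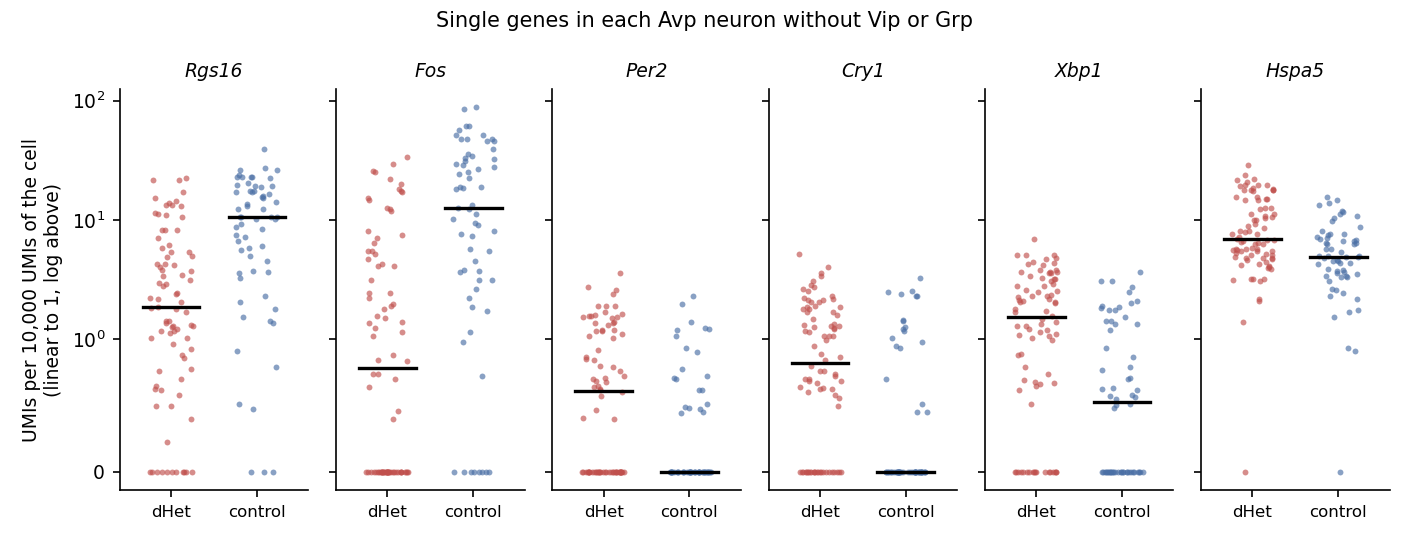
Level of Rgs16, Fos, Per2, Cry1, Xbp1 and Hspa5 in each member with 2000 UMIs or more (84 dHet cells left of 62 control cells), in UMIs per 10000 UMIs of the cell on an axis that is linear to 1 and logarithmic above; black bars are medians. Rgs16 and Fos sit lower in dHet, Per2, Cry1 and Xbp1 have fewer cells at 0 in dHet, and the clouds overlap for all 6 genes.

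The immediate early genes were lower as a group in dHet members. Of 19 measured, 17 were at least 1.5-fold lower and 0 higher, with a median log2 ratio of -1.48 against -0.02 for all genes. The shares over all genes with 50 UMIs were 4.91% lower and 3.1% higher. Egr4, a zinc-finger factor of this class, had 5.03 and 140 CPM in dHet and control members, and Junb, a partner of Fos, had 21.8 and 242. Npas4, a factor specific to neuronal activity, had 31.0 and 261, a ratio of 0.119 (0.0817 to 0.169), and Arc, a synaptic protein that activity induces, had 7.55 and 65. Fosl2 had 8.39 and 59.6. The other 2 were within 1.5-fold: Jund, which is expressed steadily, at 1073 and 1178, and Klf6 at 39.4 and 39.0.

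The list includes genes that tissue dissociation also induces, and its median log2 ratio was below 0 in each class of cell. In Vip or Grp neurons 5 of 9 measured genes were at least 1.5-fold lower with a median log2 ratio of -0.82, where 4.26% of all genes were lower and 2.33% higher. In other neurons 8 of 31 were lower with -0.34, where 0.163% of all genes were lower and 0.0953% higher. In cells that failed the neuronal condition 13 of 31 were lower with -0.53, where 1.11% of all genes were lower and 1.35% higher. The measured genes differ between classes, and the 5 CPM added shrink the ratios of genes at low levels. The sizes of these medians are thus not comparable between classes. Fos had 222 and 646 CPM in dHet and control Vip or Grp neurons, 65.6 and 181 in other neurons, and 449 and 881 in cells that failed the neuronal condition. The heat shock genes Hspa1a, with 3.36 and 79.1, and Hspa1b, with 22.7 and 80.2 in members, were lower as well, while 1 of the 12 measured chaperones, Hspa5, was higher and the other 9 stayed within 1.5-fold. The part of dissociation in these values was not tested. Among clock-type cells alone the ratios were near those of all members, with 396 and 2049 for Fos.

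Of 6 measured glucocorticoid and fasting responsive genes 4 were lower in dHet members and 0 higher, with a median log2 ratio of -0.86. The share over all 5931 genes with 50 UMIs was 4.91% lower and 3.1% higher. The 4 lower genes were Per1, which also stands on the clock and immediate early lists, Irs2, an insulin receptor substrate, at 40.3 and 83.4 CPM, Klf9, a Krüppel-like factor, at 18.5 and 39.0, and Mt1, a metallothionein, at 28.5 and 54.2 with 58.3% of its UMIs in 5 cells. In Vip or Grp neurons 2 of 5 measured genes of the list were lower and 0 higher, with a median of 0.14. In other neurons 0 of 20 were lower and 2 higher, with a median of 0.04, and in cells that failed the neuronal condition 0 of 23 were lower and 6 higher, with a median of 0.20. Over all genes with 50 UMIs in these classes, in that order, 4.26%, 0.163% and 1.11% were lower and 2.33%, 0.0953% and 1.35% higher.

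Xbp1, the transcription factor of the unfolded protein response, led the 16 genes higher in dHet members. It ran from 0 through a median of 1.45 to 6.89 UMIs per 10000 in dHet members, and from 0 through a median of 0.506 to 3.63 in control members. Summed, Xbp1 had 195 and 75.9 CPM, a ratio of 2.57 (1.96 to 3.40), against 103 and 74.6 in Vip or Grp neurons, a ratio of 1.38 (0.960 to 1.99), and 113 and 95.4 in other neurons. The 10 highest genes also held Sec61b, a subunit of the translocation channel, with 397 and 220, Ostc, with 280 and 160, and Rpn1, with 131 and 79.1, both subunits of the enzyme that adds sugars to new proteins, and Selenos, a membrane protein that helps remove misfolded ones, with 148 and 91.0. Rpn1 had a log2 ratio of 0.69 on summed counts and of 0.23, under 1.5-fold, with cells weighted equally.

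Of 14 measured genes on the unfolded protein list 5 were at least 1.5-fold higher in dHet members and 0 lower, with a median log2 ratio of 0.49, itself under 1.5-fold. All genes with 50 UMIs had shares of 3.1% higher and 4.91% lower. The 5 genes were Xbp1, Selenos, Hspa5, Manf and Sdf2l1. Hspa5, the chaperone BiP, had a median of 7.10 UMIs per 10000 in dHet members and 4.94 in control members, and summed to 975 and 620 CPM, a ratio of 1.57 (1.42 to 1.74). Manf, a secreted protein of the same response, had 326 and 211, and was just under 1.5-fold in members with both Rora and Rorb, at a log2 ratio of 0.56. Sdf2l1, a cofactor of BiP, had 34.4 and 17.3 on 41 and 16 UMIs, and was under 1.5-fold with cells weighted equally, at a log2 ratio of 0.52. The list's median log2 ratio was -0.05 over 13 measured genes in Vip or Grp neurons and 0.03 over 20 in other neurons. Over cells with 2000 UMIs or more, the summed level of the list and the Avp level had a Spearman correlation of 0.18 in dHet (84 cells) and 0.08 in control (62 cells), which share library and depth, so no relation between them is read here.

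**Figure D5:**
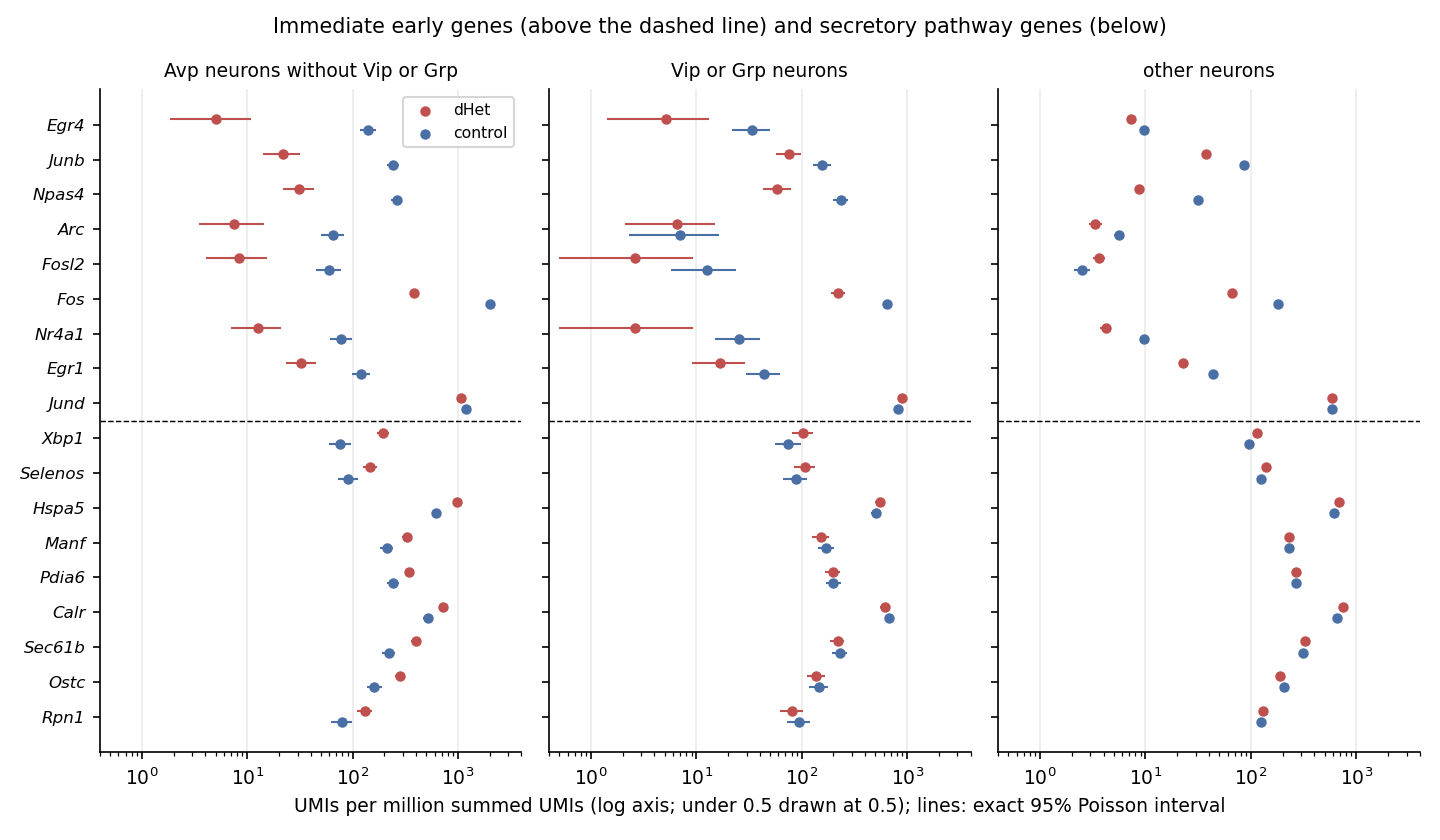
CPM on a log axis of 9 immediate early genes above the dashed line and 9 secretory pathway genes below it, in dHet (red) above control (blue), in members, Vip or Grp neurons and other neurons; lines are exact 95% Poisson intervals. In members the dHet points of the immediate early genes other than Jund lie left of control, and those of the 9 secretory genes lie right of it, while in the other classes the secretory pairs lie closer together.

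The other named genes higher in dHet members were of mixed function. Fam162a, a mitochondrial protein induced by low oxygen, had 336 and 152 CPM in dHet and control members, a ratio of 2.21 (1.82 to 2.70), against 71.5 and 84.4 in Vip or Grp neurons and 75.2 and 80.6 in other neurons. Glo1, which detoxifies methylglyoxal, had 216 and 121. Rasd1, a Ras-like protein known for its induction by dexamethasone, had 125 and 74.8, against 3.74 and 4.74 in other neurons. Pcdh10, a protocadherin, had 126 and 66.1, and was under 1.5-fold in cells between the quartiles of total UMIs, at a log2 ratio of 0.46. AC149090.1 had 227 and 113 in members and was also higher in dHet in other neurons, with 213 and 143.

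Within a library Rgs16 varied together with Fos and with Prok2 from cell to cell, but not with all clock genes. Over cells with 2000 UMIs or more, Fos and the other immediate early genes had a Spearman correlation of 0.56 in dHet (84 cells) and 0.82 in control (62 cells). Rgs16 and Fos had 0.31 and 0.58, and Rgs16 and Prok2 had 0.33 and 0.59. Avp and Rora had 0.27 and 0.40, and Avp and Fos 0.15 and 0.24. Rgs16 and Per2 plus Cry1 had -0.21 and -0.13, and Avp and Per2 plus Cry1 had -0.15 and 0.21. Cells of 1 library share its depth and its pool of mice, so these are descriptions of the 2 libraries.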

How the data were processed

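Counts are the authors' deposited UMI counts: a merged table of 20210 genes by 7418 cells, with cells named by genotype, and 1 matrix per library used as an alternative. Reads were processed with Cell Ranger (matrix header software version 3.0.2) on mm10, per the submitters' processing notes and per the file headers; the labels do not state the filters behind the merged table. The groups compared were dHet and control, 1 library each. Levels per 10000 UMIs and CPM, log2 ratios with 5 CPM added, exact intervals and Spearman correlations were computed in Python 3.11.15. The packages were numpy 2.4.6, scipy 1.17.1 and pandas 2.3.3. The calls were checked on simulated counts that had counting error only. All simulated cells of a genotype shared 1 profile, so the check does not cover real spread between cells. Scrublet in scanpy 1.11.5 marked 9 of 3982 dHet and 24 of 3582 control cells, too few to be taken as working, so no cell was removed as a doublet. The members and the gene lists were chosen with earlier results of these data known. Genes named in the text are the 10 highest and 10 lowest ratios of each comparison that met the count conditions, their level not under 10% of that in cells failing the neuronal condition, leaving out mitochondrial, ribosomal, haemoglobin, sex-linked and unnamed models and the rule's genes, the rule's genes themselves, members of the lists by level, and up to 6 of each list by ratio. Alternatives covered the Avp threshold, the per-library matrices, doublets, depth, the added constant, the centring, the count conditions and cell weights.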

Additional observations from a re-analysis of the deposited data

How the results depend on the processing

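No paired analysis was possible because each genotype has 1 library. Over the count conditions, 50 UMIs and 10% of cells gave 359 genes past 1.5-fold between dHet and control members (136 higher, 223 lower, against 49), 322 between members and Vip or Grp neurons (against 121) and 96 between clock-type cells and the rest (against 14). With 10 UMIs and no share of cells these were 454, 338 and 96. The clock-type count was 25 in cells between the quartiles of UMIs and 53 with cells weighted equally, and no value came at an Avp threshold of 50, where no control rest was left. Of 663 log2 ratios of 39 genes under alternatives, 0 reversed and 24 moved. Of 300 ratios of 20 genes between members and other neurons 0 reversed and 47 moved beyond 0.5 on the log2 scale, 14 of them with 20 CPM added. Adding 20 CPM gave 1088 genes between members and other neurons (against 1969) and left Egr4, Arc and Fosl2 at -2.67, -1.63 and -1.49 on the log2 scale. Between-genotype counts over the remaining alternatives stayed within 34 to 66, the ratio of member shares within 0.949 to 1.43, and that of clock-type shares within 0.809 to 0.959. Restricting to members with Rora and Rorb, to clock-type cells, leaving out single odd cells, or taking the Vip or Grp neurons out of the other neurons were chosen after seeing the data. Depth limits genes with under 50 UMIs, and 3 UMIs in all members is 2.52 CPM in dHet and 3.25 in control.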
